A study of Mus musculus with 2 samples.

Results

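Nos2 and 9 further genes of arginine handling and polyamine synthesis or breakdown were described in mouse CD4+ T cells. The 10 genes were found in the deposited expression table by Entrez gene identifier, out of 13056 genes with such an identifier and 24440 features in all. The list was chosen by pathway with the FPKM values of both libraries already known, so the differences between the libraries are given as a description, with no test. The CD4+ T cells came from wild-type C57BL/6 mice aged 6 to 8 weeks and were kept for 48 h in conditions that drive differentiation to T helper 17 (Th17) cells. One culture received wild-type antigen presenting cells (the WT-APC library). The other received antigen presenting cells transgenic for OX40L, a membrane ligand that costimulates T cells through its receptor OX40 (the OX40L-TG-APC library). The promoter of the transgene and the kind of antigen presenting cell are not given in the sources used here, and both cultures held T cells of the same genotype. With 1 library for each condition there was no replicate check, and every comparison is of these 2 libraries, not of the conditions.

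Levels are FPKM, the fragments per kilobase of transcript scaled to library size, so they can be compared between genes. Of the deposited values with 7 significant digits, 98.9% (WT-APC) and 99.9% (OX40L-TG-APC) ended in 5, as a mean of 2 values of 6 digits can. Whether the table holds such means is not given in the sources used here. By estimate, 25300000 fragments stood behind the WT-APC values and 28900000 behind the OX40L-TG-APC values. Each ratio is OX40L-TG-APC over WT-APC and has a 95% exact Clopper-Pearson interval computed from estimated fragments, which covers counting error only. A log2 change is the difference of log2(FPKM + 1) between the libraries, OX40L-TG-APC minus WT-APC, and for low genes it is smaller than the plain ratio. Genes with a larger value of at least 1 FPKM were kept, and a 2-fold change on this scale was the mark for a call. Of the T cell markers all 10 were kept, with a summed level of 2160 FPKM in the WT-APC and 2430 FPKM in the OX40L-TG-APC library. The Th17 cytokine gene Il17a stood at 315 FPKM in the WT-APC and 24.7 FPKM in the OX40L-TG-APC library. Of 10645 kept genes, 2.26% were called higher and 1.32% lower, and the median log2 change was 0.11. With the median log2 ratio of well-expressed genes set to 0, a shift of 0.13, the 241 higher and 141 lower genes became 186 and 175.

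Arginine stands at a branch point of metabolism. Nitric oxide synthases turn it into nitric oxide and citrulline, arginases turn it into urea and ornithine, and citrulline can be built back into arginine. Ornithine decarboxylase makes putrescine from ornithine, and aminopropyl groups taken from decarboxylated S-adenosylmethionine extend putrescine to spermidine and then spermine. Polyamines bind nucleic acids and are needed for growth. Activated T cells are known to raise polyamine synthesis, and spermidine also supplies the hypusine modification of the translation factor eIF5A.

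Of the 10 genes, 9 were kept, Nos2 only through its OX40L-TG-APC value, and Arg2 was below the filter in both libraries. Nos2 was called higher, no gene was called lower, and the other 8 kept genes were neither. The background is 2.26% called higher among all kept genes, and since the genes were listed with their values known, nothing is read from the count of 1. The median log2 change of the 9 kept genes was 0.26, against 0.11 over all kept genes. Leaving Nos2 out, the changes of the other 8 ran from -0.08 to 0.70 with a median of 0.25. The counting interval lay above 1 for 7 of the 9 and below 1 for none, and without Nos2 it lay above 1 for 6 of 8. Of kept genes with a known transcript length, 49.7% had an interval above 1 and 17.5% one below 1. The genes were listed with their values known and intervals narrow with more fragments, so nothing is read from these counts.

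**Figure D1:**
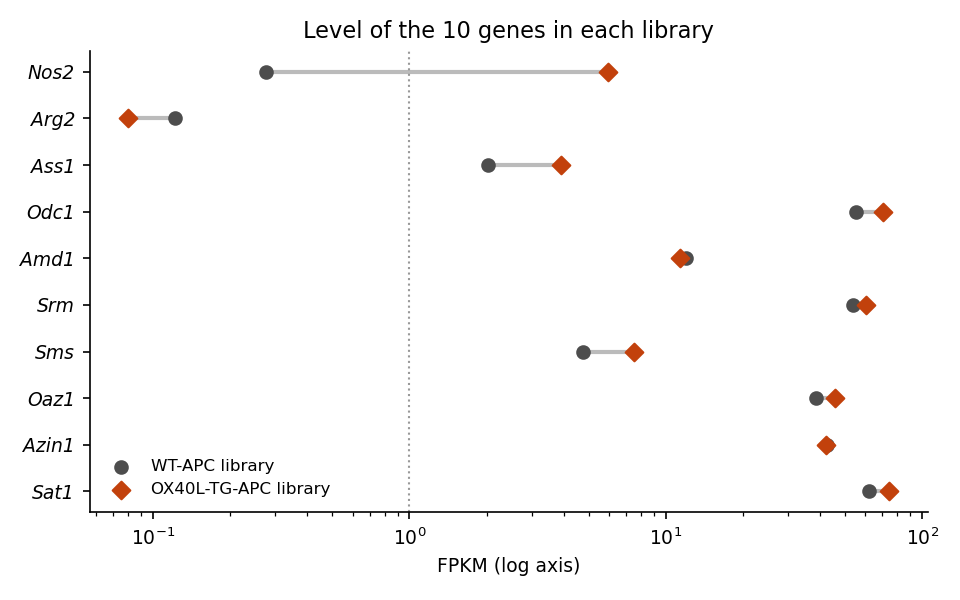
FPKM on a log axis of the 10 genes in the WT-APC library (grey circles) and the OX40L-TG-APC library (orange diamonds), 1 library each, with a dotted line at 1 FPKM. Nos2 moves from 0.275 to 5.97 FPKM, Arg2 stays under the line, and the other genes lie close together in both libraries.

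Nos2 encodes the inducible nitric oxide synthase, best known from activated macrophages, which makes nitric oxide and citrulline from arginine. The gene (Entrez 18126) lies on chromosome 11 from 78920787 to 78960226 in the RefSeq annotation of GRCm38. It stood at 0.275 FPKM in the WT-APC library and at 5.97 FPKM in the OX40L-TG-APC library. This is a shift from a level under 1 FPKM, the second lowest of the 10 genes, to a low but clearly covered one. The WT-APC value has 6 digits and equals that of the authors' deposited comparison table, so it may be a single value where others may be means. About 26 fragments stood behind the lower value and 657 behind the higher one. The ratio was 21.7 (14.9 to 34.1), and the log2 change of 2.45 was the 20th highest of the 10645 kept genes. A separate assembled feature carries the same Entrez identifier, at 0.123 FPKM in the WT-APC and 0 in the OX40L-TG-APC library. The ratio leaves this feature out and would be lower with it. The authors' deposited table lists 398 of the 13056 genes with an Entrez identifier, and Nos2 was the 1 gene of the 10 among them. As the 10 genes were listed with their values known, nothing is read from this count. The authors' deposited table gave Nos2 a log2 ratio of 4.44 with an unadjusted p-value of 0.00085, which compares the libraries. From bulk RNA, more cells with Nos2 transcripts and more transcripts per cell cannot be told apart.

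Genes beside Nos2 on the chromosome did not share its difference. Lgals9, which encodes the lectin galectin-9, begins 2.46 kb after the printed Nos2 locus and had 35.1 FPKM with WT APCs and 36.9 FPKM with OX40L-TG APCs, which is a ratio of 1.05 (0.977 to 1.13). Lyrm9, 77 kb on the other side, measured 3.80 and 3.89 FPKM (ratio 1.02, interval 0.930 to 1.13). Both intervals include 1. Among 2221 protein-coding genes with a mean level within 2-fold of that of Nos2, those with the nearest log2 change over the 2 libraries were Tm4sf5, Hbb-b1 and Ajuba. Tm4sf5, which encodes a tetraspanin-like membrane protein, stood at 0.359 and 6.61 FPKM. Ajuba, the gene of a LIM domain protein, stood at 0.667 and 7.24 FPKM. The beta globin gene Hbb-b1 stood at 0.00065 and 4.24 FPKM and shares its printed locus with another gene, so its split of reads is uncertain and no ratio is given. A likeness over 2 libraries describes these values and nothing more.

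Macrophages are a known source of Nos2 transcripts, so markers of other cell types were set beside it, and their part in the result was not tested. Of 10 macrophage and monocyte markers, 9 had a smaller value with OX40L-TG APCs and 1, Cd68 (2.25 and 2.44 FPKM), a larger one. Their summed level was 14.5 FPKM in the WT-APC and 7.18 FPKM in the OX40L-TG-APC library, and none was at 0 in either. The defining markers Adgre1 (0.284 and 0.108 FPKM) and Csf1r (0.359 and 0.134 FPKM) were under 1 FPKM in both. Lyz2, a lysozyme gene of myeloid cells, stood at 4.55 and 1.01 FPKM. Of 8 dendritic cell markers, 6 had a smaller value with OX40L-TG APCs and 2, Zbtb46 (0.788 and 0.934 FPKM) and Cd209a, a larger one. Dendritic cell markers summed to 18.2 and 8.25 FPKM, most of it Cd86 (13.4 and 6.07 FPKM). Clec9a and Siglech were at 0 in the OX40L-TG-APC library and Cd209a at 0 in the WT-APC library. Neutrophil markers summed to 5.02 and 2.68 FPKM, with 2 of 5 markers lower, 3 higher, and Mpo and Elane at 0 in the WT-APC library. B cell markers were lower in 10 of 10 genes, with a sum of 226 and 112 FPKM, most of it Cd74 (172 and 89.2 FPKM). Over all 13056 genes with an Entrez identifier, 4496 had a smaller value with OX40L-TG APCs and 8286 a larger one. Natural killer cell markers summed to 10 and 7.92 FPKM, CD8 T cell markers to 7.02 and 6.33 FPKM, and stromal and endothelial markers to 22.7 and 7.56 FPKM. The last sum is nearly all Pecam1 (22.7 and 7.55 FPKM), an adhesion gene that leukocytes also express, while Kdr and Cdh5 were near 0 in both libraries. Each of these sums was lower in the library where Nos2 was higher, while some single markers were higher there. Whether cells of these types had a part in the Nos2 difference was not tested.

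**Figure D2:**
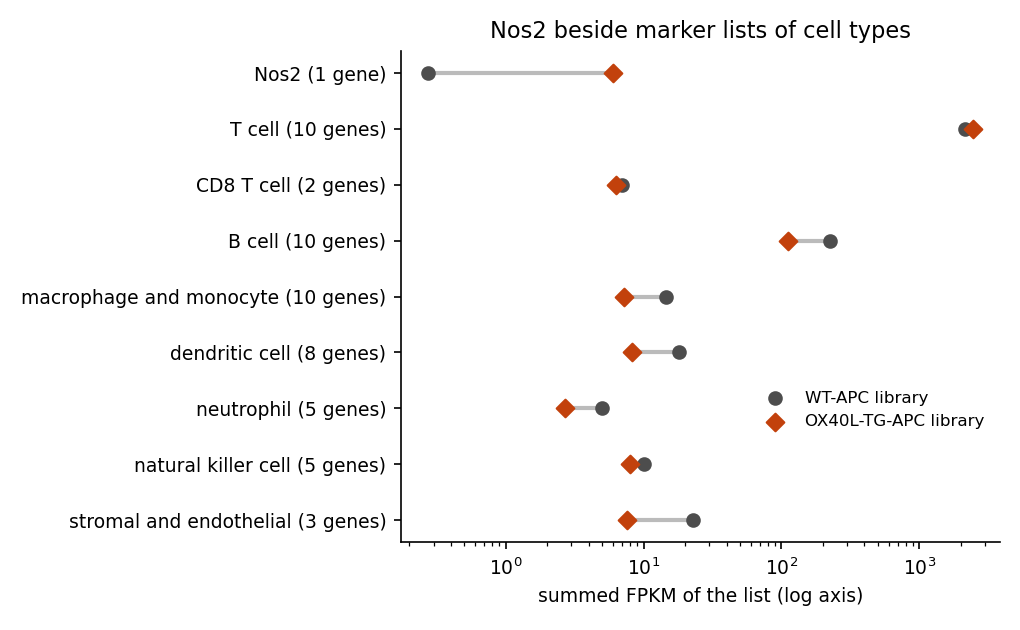
Summed FPKM on a log axis of the marker lists of T cells and other cell types in the WT-APC (grey circles) and OX40L-TG-APC (orange diamonds) libraries, with Nos2 alone in the top row. Nos2 goes up from 0.275 to 5.97 FPKM, while the macrophage and monocyte sum goes from 14.5 to 7.18 FPKM and the B cell sum from 226 to 112 FPKM.

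Arginases, the competing users of arginine, were at the edge of detection. Arg2, the gene of the mitochondrial arginase (Entrez 11847, chromosome 12, 79130788 to 79156301), stood at 0.122 FPKM in the WT-APC and 0.0796 FPKM in the OX40L-TG-APC library. Only about 4 and 3 fragments stood behind these values, and the interval of the ratio ran from 0.0960 to 3.87, so a difference was not detectable at this depth. Its printed locus also holds Vti1b, a gene of vesicle fusion at 41.4 and 45.3 FPKM, so the few fragments are uncertain. Arg1, the gene of the cytosolic arginase of the liver and of some macrophages, was as low, at 0.116 and 0.0761 FPKM. Its printed locus holds 2 genes.

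Ass1 encodes argininosuccinate synthase, the rate-limiting step by which citrulline is turned back into arginine. The gene (Entrez 11898, chromosome 2, 31470270 to 31520670) stood at 2.03 FPKM in the WT-APC and 3.91 FPKM in the OX40L-TG-APC library. The ratio was 1.93 (1.49 to 2.51) and the log2 change 0.70, the largest of the 10 after Nos2 and higher than that of 94.9% of kept genes, though short of 2-fold. Asl, which encodes the next enzyme of this step, had 17.8 FPKM with WT APCs and 26.6 FPKM with OX40L-TG APCs, which is a ratio of 1.49 (1.39 to 1.61). Of all kept genes, 7266 of 10645 had a ratio above 1.

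Odc1 encodes ornithine decarboxylase, the first and rate-limiting enzyme of polyamine synthesis. It was the second most abundant of the 10 genes in both libraries (Entrez 18263, chromosome 12, 17544808 to 17551502). It stood at 55.2 FPKM in the WT-APC and 70.3 FPKM in the OX40L-TG-APC library, a ratio of 1.27 (1.22 to 1.33). Amd1 encodes S-adenosylmethionine decarboxylase, which supplies the aminopropyl groups. It stood at 12.0 and 11.4 FPKM. The ratio was 0.945, with an interval (0.865 to 1.03) that includes 1.

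Amd1 (Entrez 11702, chromosome 10, 40287458 to 40302188) has a near-identical copy, Amd2, on the same chromosome. The transcripts in the GENCODE M21 annotation are 99.6% identical over 3204 aligned bases, with a longest identical stretch of 930 bases and 1 difference in 1002 coding bases. The coding stretch around that difference is shown because fragments inside an identical stretch cannot tell the copies apart, with the differing base in capitals:
Amd1: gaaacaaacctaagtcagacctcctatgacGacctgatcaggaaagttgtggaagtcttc
Amd2: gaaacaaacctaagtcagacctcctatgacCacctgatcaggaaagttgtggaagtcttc
Amd2 stood at 1.60 and 1.18 FPKM, with an interval of the ratio from 0.568 to 0.960. How the authors' counting divided fragments between the copies is not given in the sources used here. Their summed level was 13.6 FPKM in the WT-APC and 12.5 FPKM in the OX40L-TG-APC library, a ratio of 0.92.

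Spermidine synthase is encoded by Srm (Entrez 20810, chromosome 4, 148591513 to 148594619). Srm measured 53.7 and 60.2 FPKM (ratio 1.12, interval 1.05 to 1.19), close to the median plain ratio of kept genes of 1.09. Sms, the gene of spermine synthase (Entrez 20603, chromosome X, 157443851 to 157492287), had 4.74 FPKM with WT APCs and 7.49 FPKM with OX40L-TG APCs, which is a ratio of 1.58 (1.41 to 1.78). Sms was the less abundant of the pair throughout. The level of Srm was 11.3 times that of Sms in the WT-APC library and 8.04 times in the OX40L-TG-APC library. Over the 4 genes of polyamine synthesis, 3 lay above the median change of all kept genes and Amd1 lay below it.

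**Figure D3:**
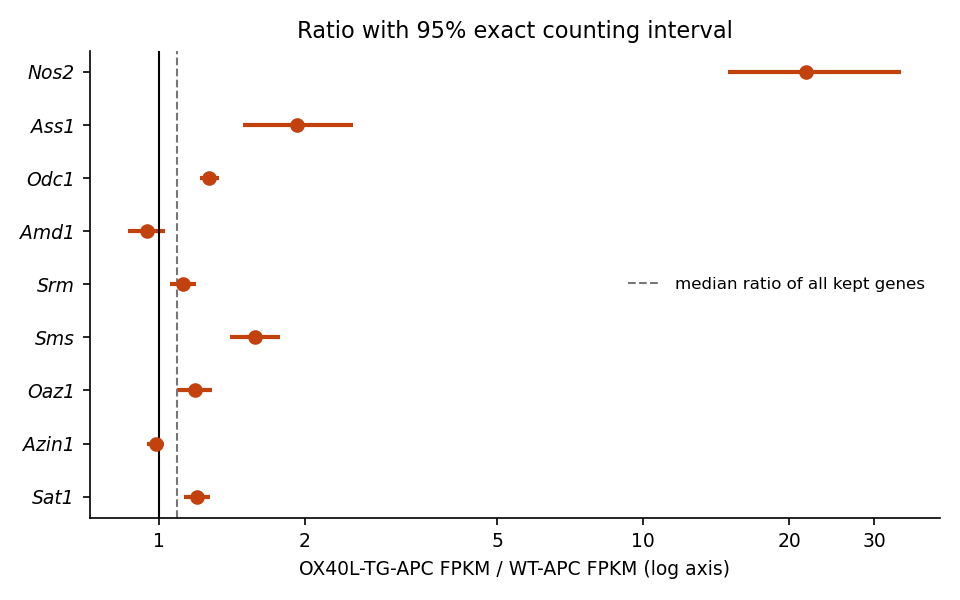
Ratio of the OX40L-TG-APC to the WT-APC FPKM on a log axis for the 9 kept genes (points), with 95% exact counting intervals (bars), a solid line at 1 and a dashed line at the median ratio of kept genes, 1.09. Nos2 stands at 21.7, Ass1 and Sms at 1.93 and 1.58, and the intervals of Amd1 and Azin1 cross 1.

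Ornithine decarboxylase is controlled after transcription by antizyme and by a decoy of antizyme. Oaz1 encodes antizyme, which binds the decarboxylase and sends it to the proteasome (Entrez 18245, chromosome 10, 80826656 to 80829290). Translation of Oaz1 needs a +1 frameshift that polyamines promote, so its RNA level is not its protein level. The frameshift site is shown because it is the control point that RNA counts cannot see. In the mRNA the capitals mark the last codon read in the first frame and the stop codon after it, and in the annotated coding model they mark the same place with 1 base left out, at chromosome 10, 80828295:
Oaz1 mRNA: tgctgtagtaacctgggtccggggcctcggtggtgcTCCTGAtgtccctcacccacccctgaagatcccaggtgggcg
Oaz1 coding model: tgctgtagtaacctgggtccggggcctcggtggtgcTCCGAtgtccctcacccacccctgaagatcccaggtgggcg
Read without the shift, the frame from the annotated start codon ends after 68 codons. With the base left out it runs for 227 codons. Both sequences come from GENCODE M21 transcripts.

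Oaz1 stood at 38.5 FPKM in the WT-APC and 45.7 FPKM in the OX40L-TG-APC library, a ratio of 1.19 (1.09 to 1.29). Its printed locus also holds a feature without an Entrez identifier at 19.3 and 18.8 FPKM, so the level of the gene is uncertain to that extent. Azin1, the antizyme inhibitor that frees ornithine decarboxylase from antizyme (Entrez 54375, chromosome 15, 38487430 to 38519294), stood at 42.7 and 42.1 FPKM. Its ratio of 0.986 (0.947 to 1.03) had an interval that includes 1. Odc1 was 1.43 times as abundant as Oaz1 in the WT-APC library and 1.54 times in the OX40L-TG-APC library. Azin1 was 1.11 times as abundant as Oaz1 in the first and 0.922 times in the second. Odc1 and Oaz1 were both slightly higher while the interval of Azin1 included 1. Beside the median ratio of kept genes, 1.09, the interval of Odc1 (1.22 to 1.33) lay above and that of Azin1 below. The interval of Oaz1 began at 1.09.

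Sat1 encodes spermidine/spermine N1-acetyltransferase, which marks polyamines for breakdown and export. It was the most abundant of the 10 genes in both libraries (Entrez 20229, chromosome X, 155213126 to 155216449). Its level was 62.1 FPKM in the WT-APC and 74.5 FPKM in the OX40L-TG-APC library, a ratio of 1.20 (1.13 to 1.28).

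In the order of levels, Sat1, Odc1 and Srm led in both libraries, Amd1 and Sms held ranks 6 and 7 in both, and Arg2 was the lowest in both. Azin1 ranked above Oaz1 in the WT-APC library and below it in the OX40L-TG-APC library, at values that lay close together. Nos2 passed Ass1, from 0.275 against 2.03 FPKM to 5.97 against 3.91 FPKM. Odc1 was 201 times as abundant as Nos2 in the WT-APC library and 11.8 times in the OX40L-TG-APC library.

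**Figure D4:**
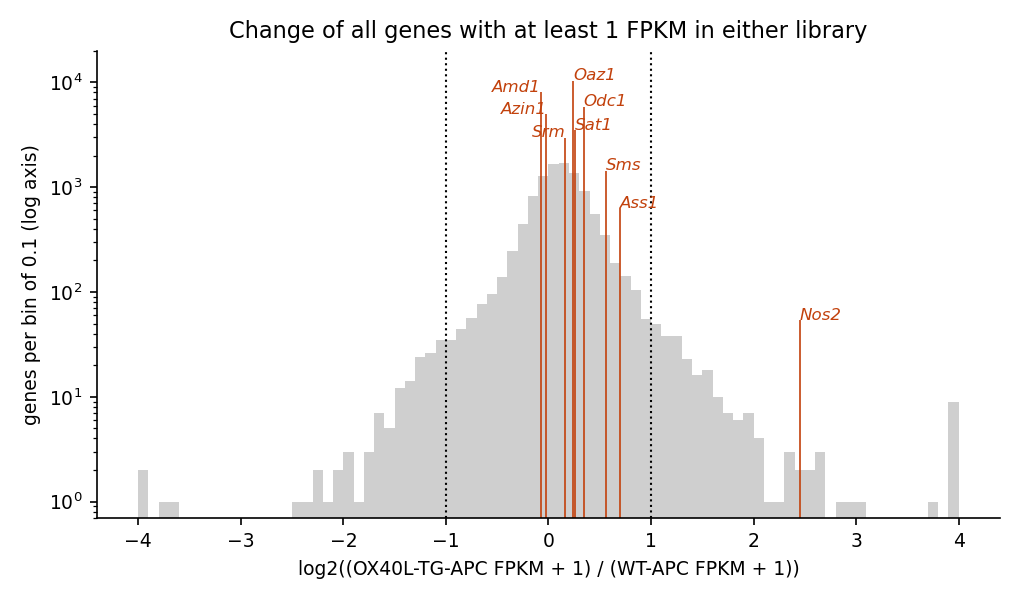
Number of kept genes (log axis) by log2 change of FPKM + 1 (OX40L-TG-APC over WT-APC) in bins of 0.1, with 2 genes below -4 and 9 above 4 placed in the end bins, dotted lines at 2-fold, and the 9 kept genes marked in orange. Nos2 lies at 2.45 in the right tail, and the other 8 lie between -0.08 and 0.70 in the body of the distribution.

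Promoter sequences, taken as the 250 bases before a RefSeq start in GRCm38.p6, were found for 6 of the 10 genes. They are shown for Ass1, Sms and Odc1, the genes with the largest ratios among these 6. CACGTG, the E-box that Myc and its partners can bind, occurred in the windows of Ass1 and of 1 of the 2 Sms starts, and in 6.02% of 32851 such windows over all genes. In the windows of Ass1 (chr2:31470020-31470269, plus strand) and Sms (chrX:157492288-157492537, minus strand), capitals mark CACGTG, which reads the same on both strands:
Ass1: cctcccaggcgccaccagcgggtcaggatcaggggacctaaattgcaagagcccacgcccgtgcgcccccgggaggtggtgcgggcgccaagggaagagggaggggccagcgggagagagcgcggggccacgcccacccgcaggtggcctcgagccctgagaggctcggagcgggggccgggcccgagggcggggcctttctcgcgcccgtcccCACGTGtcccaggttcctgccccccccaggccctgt
Sms: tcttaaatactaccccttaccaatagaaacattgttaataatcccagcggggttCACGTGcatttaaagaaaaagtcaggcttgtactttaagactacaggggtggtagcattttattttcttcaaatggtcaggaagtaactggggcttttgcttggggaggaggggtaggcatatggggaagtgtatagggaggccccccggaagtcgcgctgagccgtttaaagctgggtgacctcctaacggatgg
The Odc1 window (chr12:17544623-17544872, plus strand) held no CACGTG, nor did those of Amd1, Oaz1 and Sat1. It held 4 matches to the GC box GGGCGG on either strand, in capitals, and 32.7% of all windows held at least 1 and 4.09% at least 4:
Odc1: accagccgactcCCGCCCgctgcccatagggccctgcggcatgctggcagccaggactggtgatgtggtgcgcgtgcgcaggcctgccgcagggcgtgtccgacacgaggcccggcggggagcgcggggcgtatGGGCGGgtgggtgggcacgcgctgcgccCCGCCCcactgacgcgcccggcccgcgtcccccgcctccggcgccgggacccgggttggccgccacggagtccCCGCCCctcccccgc
The other Sms window also held 4 matches to GGGCGG, Sat1 held 2, and Ass1 and Amd1 held 1 each, so the match was not particular to Odc1. The Odc1 start used for its window lies after the gene start given above, 17544808. The end of that window, with the match at -15, thus lies inside the gene as given, and so does the other Sms window. A match describes the letters of a window and is not a measured binding site. Myc itself measured 74.1 and 76.2 FPKM (ratio 1.03, interval 0.984 to 1.07), at a printed locus of 2 genes.

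To read the 10 genes beside the rest of their pathways, 70 other genes in 9 lists were looked up, of which 61 were in the table and 47 were kept. None of the 47 was called higher or lower at 2-fold, against 3.59% of all kept genes called either way. Their median log2 change was 0.19. Of the 47, 34 lay above the median of all kept genes, among them 2 kept only through their OX40L-TG-APC values.

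Genes of nitric oxide handling had a median log2 change of 0.43 over 6 kept genes, 5 of them above the median of all genes. Ddah2, whose product breaks down methylated arginines that inhibit nitric oxide synthases, led this list at 1.66 and 4.05 FPKM, a ratio of 2.43 (1.76 to 3.35). Gch1 encodes the first enzyme in the synthesis of tetrahydrobiopterin, the cofactor of nitric oxide synthases, and had 1.76 FPKM with WT APCs and 3.67 FPKM with OX40L-TG APCs, which is a ratio of 2.09 (1.69 to 2.61). Spr, the gene of the last enzyme of that synthesis, stood at 28.9 and 44.1 FPKM, and Pts, that of the middle one, at 15.5 and 14.7 FPKM. Ddah2 was named by rule, while Gch1, Spr, Pts, Slc7a1, Slc7a6, Asl, Arg1, Nags, Oat, Smox, Eif5a and Myc were chosen after their values were seen.

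The list of arginine and the urea cycle had a median of 0.64 over 5 kept genes. Of these, 2, Azin2 and Nags, were kept only through their OX40L-TG-APC values, which fixed their direction, so nothing is read from that median. Azin2, which encodes a second antizyme inhibitor, measured 0.127 and 1.19 FPKM (ratio 9.37, interval 4.39 to 28.3) from about 6 and 69 fragments. Nags, the gene of N-acetylglutamate synthase, stood at 0.112 and 1.14 FPKM, a ratio of 10.2. Oat, which encodes ornithine aminotransferase and links ornithine to glutamate and proline, stood at 39.3 and 62.0 FPKM, a ratio of 1.58. The 5 other genes of the list, Arg1 among them, were below the filter. On the log2(FPKM + 1) scale Azin2 came to 0.96 and Nags to 0.94, just short of 2-fold. With a pseudocount of 0.1 FPKM, Azin2, Nags, Ddah2 and Gch1 passed 2-fold.

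Arginine uptake genes had a median of 0.24 over 4 kept genes. Slc7a1, a main carrier of arginine and other cationic amino acids, stood at 14.9 and 16.4 FPKM, with a ratio of 1.1 (1.04 to 1.15). Slc7a6, the light chain of an exchanger of cationic for neutral amino acids, stood at 33.1 and 27.2 FPKM, with a ratio of 0.823 (0.782 to 0.866). Its printed locus holds 5 genes, so its split of reads is uncertain. The largest change of the list was that of Slc7a5, the light chain of a carrier of large neutral amino acids and not of arginine, at 19.3 and 32.3 FPKM, a ratio of 1.67 (1.58 to 1.78). In the branch to proline and glutamate the median was 0.20 over 6 genes. Glud1, which encodes glutamate dehydrogenase, led it at 46.5 and 74.3 FPKM, a ratio of 1.60 (1.54 to 1.66).

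Amd2 led the list of other synthesis and control genes on the lower side, as given above, and that list had a median of -0.05 over 4 genes. In breakdown and transport the median was 0.30 over 4 kept genes. Paox, the gene of a peroxisomal oxidase of acetylated polyamines, led it at 2.86 and 4.49 FPKM, a ratio of 1.57 (1.32 to 1.87). Smox, which encodes spermine oxidase, was the most abundant of that list and lay on the other side, at 102 and 79.5 FPKM, a ratio of 0.780 (0.749 to 0.812).

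Downstream of spermidine, the 4 hypusination genes had a median of 0.21. Dhps, the gene of deoxyhypusine synthase, led at 17.8 and 21.7 FPKM, at a printed locus of 2 genes, and Eif5a stood at 406 and 452 FPKM. Methionine salvage, which recycles the by-product of spermidine and spermine synthesis, had a median of 0.19 over 6 genes, led by Enoph1 (13.7 and 16.7 FPKM). Among Myc and its partners the median was 0.10 over 8 genes, and Mxi1, a Max-binding antagonist of Myc, had the largest change (16.3 and 21.6 FPKM).

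**Figure D5:**
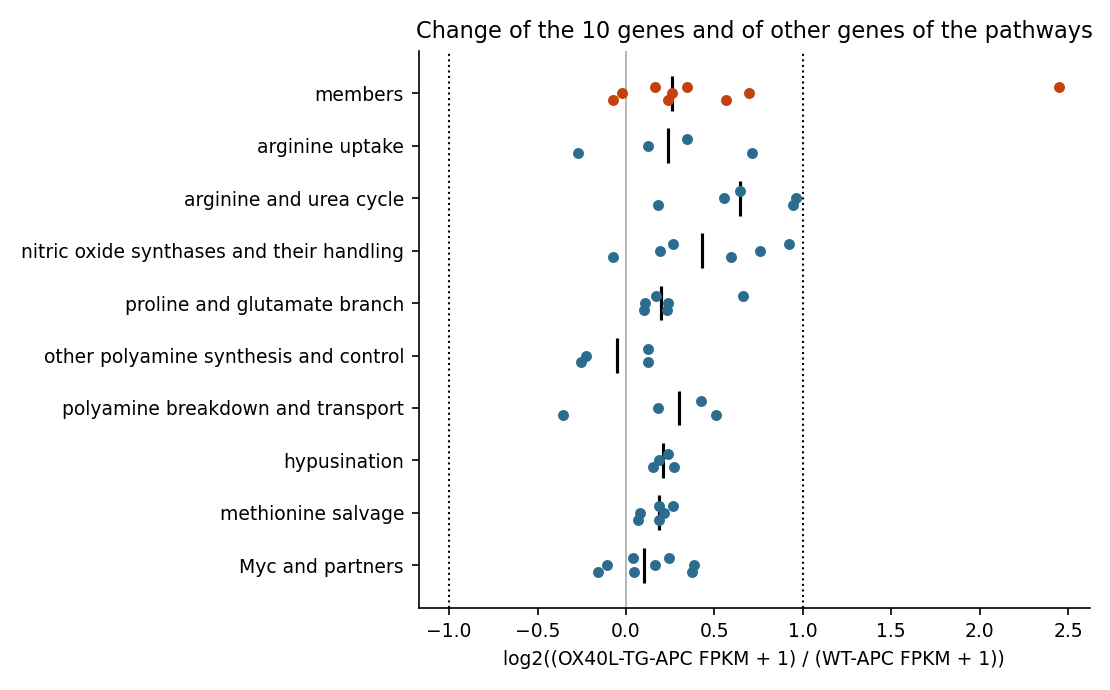
The log2 change of FPKM + 1 (OX40L-TG-APC over WT-APC) of each kept gene (points) with the list median (black bar), for the 10 genes' 9 kept members (orange) and the 9 lists of other pathway genes (blue), with dotted lines at 2-fold. Nos2 at 2.45 is the 1 point past a dotted line, and the medians of the other lists run from -0.05 to 0.64.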

How the data were processed

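The labels describe 2 RNA-seq libraries, 1 per culture, made with an Illumina TruSeq kit from 1 µg of total RNA of cultured cells. The authors deposited FPKM values. The submitters' processing notes name TopHat2, Cuffdiff and the build mm9, and their versions and strand handling are not given in the sources used here. The authors' deposited comparison table also gives a log2 ratio and an unadjusted p-value per gene, per the file headers. Printed loci overlapped the GRCm38 RefSeq gene for 99.7% of 13030 matched genes, so member positions are the RefSeq GRCm38 ones.

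Library sizes were estimated from the 1-fragment steps of low FPKM values. Over 416 single-transcript genes the libraries' steps differed by a factor of 0.874, where 69.5% of genes gave whole-number fragment ratios within 0.2%, against 3.37% at a shifted factor. Fragments used the median length of transcripts matched to RefSeq in GENCODE M21, without a correction for fragment length. The procedure was tested on simulated data. No test between conditions was run. Alternatives changed the pseudocount, the filter, the scaling, the transcript length and the handling of merged loci. A further marker gene and the summed level of its list are not reported here. The genes and lists were chosen with earlier results of these data known. By rule, the named genes were any pathway gene at 2-fold, of which there were none, and the largest change of each list. The 3 genes nearest to Nos2 in change were also named by rule. Further pathway genes, listed in the Results, were chosen after their values were seen. Python 3.11.15, numpy 2.4.6, scipy 1.17.1 and Biopython 1.88 were used.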

Additional observations from a re-analysis of the deposited data

How the results depend on the processing

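No paired analysis was possible because each condition had 1 library. Nos2 stayed called higher in each alternative run, with a log2 change of 4.02 at a pseudocount of 0.1 FPKM and 1.06 at 5 FPKM. At a pseudocount of 0.1 FPKM, 4 other pathway genes were called higher, and 405 of all genes were higher and 251 lower. At 5 FPKM, 101 were higher and 39 lower. These follow from the weight a pseudocount gives to low values. Setting the median log2 ratio of well-expressed genes to 0 lowered every log2 ratio by 0.13 and turned the median log2 change of all genes to -0.0061. Under it Srm came to 0.03, Odc1 to 0.21, Oaz1 to 0.11, Sat1 to 0.13, Azin1 to -0.15 and Amd1 to -0.20, and the median of the 9 kept genes to 0.13. With equal totals the log2 ratios were 0.08 lower. No other gene of the 10 reached 2-fold in the alternatives run. Depth limits Arg2, with about 4 and 3 fragments, and the WT-APC value of Nos2, with about 26.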

Other observations

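In the authors' deposited comparison table Nos2 had the same WT-APC FPKM as in the expression table, 0.275. It was among 22 of the 398 genes with equal values within 0.2%, while the other 376 were at a median of 0.976 times it. The OX40L-TG-APC value of Nos2 was 5.96 FPKM in the authors' deposited comparison table and 5.97 FPKM in the expression table. The log2 change of Nos2 was 2.45 from either table. An assembled feature at the Nos2 locus carries the Entrez identifier of Nos2 and was listed apart from the gene. It stood at 0.123 FPKM in the WT-APC library and at 0 in the OX40L-TG-APC library. The values given for Nos2 leave it out. The annotation names 5 pseudogenes after Amd and 1 each after Oaz1 and Sms, and how their reads were counted is not given in the sources used here.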
